A study of Mus musculus with 10 samples.

Results

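Hemidesmosome and Fraser basement membrane genes are described here in single cells of embryonic mouse back skin: Itga6, Itgb4, Col17a1, Col7a1, Lama3, Lamb3, Lamc1, Fras1 and Frem2. The 9 genes were chosen by symbol, and each is 1 row among the 32285 genes listed for E15.5 and E17.5 and the 27998 genes listed for E16.5. Their unique molecular identifiers (UMIs, 1 per captured transcript) were counted in 10 libraries made from dissociated total back skin of mice on a mixed C57Bl/6J and CD-1 background. MOF cKO embryos (MOFfl/fl/K14Cre) lack in the epithelium the histone acetyltransferase MOF, encoded by Kat8, and QPC cKO embryos (QPCfl/fl/K14Cre) lack there the complex III subunit QPC, encoded by Uqcrq. Controls were wild-type or heterozygous littermates. E15.5 skin gave 2 control libraries (replicates 2 and 3) and 2 MOF cKO libraries (replicates 5 and 6). E16.5 skin gave replicates 1 and 2 of each of these groups, and E17.5 skin a single control and a single QPC cKO library. K14Cre is a keratinocyte driver, and the study describes the skin of E15.5 MOF cKO replicate 6 as mosaic by staining. Each stage was run with its own 10x chemistry, so stage and chemistry cannot be told apart.

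Hemidesmosomes rivet basal keratinocytes to the basement membrane. The integrin pair α6β4 (Itga6, Itgb4) and the transmembrane collagen XVII (Col17a1) bind laminin-332, to which Lama3 and Lamb3 contribute chains, and collagen VII (Col7a1) forms the anchoring fibrils that tie the membrane to the dermis. Lamc1 encodes the γ1 chain shared by most other laminins. Fras1 and Frem2 encode large proteins of the Fraser complex, which holds epidermis and dermis together in the embryo before anchoring fibrils are mature, and Frem1 is their partner made mainly by the dermis. Loss of hemidesmosome or laminin-332 genes causes junctional skin blistering, loss of Col7a1 causes dystrophic blistering, and loss of Fraser genes causes blisters in the embryo.

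On GRCm38 Lamc1 is at chr1:153218922-153332786 on the minus strand, and Lamb3 is at chr1:193207699-193343878 on the plus strand. Itga6 spans chr2:71745616-71858416, Frem2 chr3:53513938-53657355, Fras1 chr5:96373955-96784728 and Col7a1 chr9:108953586-108984875. Itgb4 spans chr11:115974709-116008412 and Col17a1 chr19:47646344-47692094, and the position of Lama3 is not used here. Values are sums over whole genes of reads from the 3′ end, so the members are not ranked against each other by level.

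The table of RefSeq promoters (GRCm38.p6) held 4 of the 9 members. The 250 bases before their starts are shown because these genes part by cell class below: Col17a1, Frem2 and Lamb3 were read in keratinocytes, and Col7a1 in fibroblasts as well. They are chr19:47692043-47692292 (minus strand) for Col17a1, chr3:53657356-53657605 (minus strand) for Frem2, chr1:193301744-193301993 (plus strand) for the first of the Lamb3 starts and chr9:108953336-108953585 (plus strand) for Col7a1. Capitals mark matches, on either strand, to TATAAA or GGGCGG.
Col17a1: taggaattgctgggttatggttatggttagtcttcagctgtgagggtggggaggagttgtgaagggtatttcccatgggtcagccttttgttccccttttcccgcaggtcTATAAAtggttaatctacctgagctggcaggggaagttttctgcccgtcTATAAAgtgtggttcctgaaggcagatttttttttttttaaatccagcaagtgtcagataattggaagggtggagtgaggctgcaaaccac
Frem2: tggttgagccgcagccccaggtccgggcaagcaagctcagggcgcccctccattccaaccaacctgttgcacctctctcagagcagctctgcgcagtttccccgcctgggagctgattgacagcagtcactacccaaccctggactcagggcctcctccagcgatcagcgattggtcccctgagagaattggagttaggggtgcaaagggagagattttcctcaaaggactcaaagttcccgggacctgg
Lamb3: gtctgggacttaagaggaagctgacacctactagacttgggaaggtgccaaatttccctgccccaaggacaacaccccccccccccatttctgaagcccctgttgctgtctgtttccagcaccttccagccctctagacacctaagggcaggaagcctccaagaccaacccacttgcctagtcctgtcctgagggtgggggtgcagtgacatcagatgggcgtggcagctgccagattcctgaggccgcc
Col7a1: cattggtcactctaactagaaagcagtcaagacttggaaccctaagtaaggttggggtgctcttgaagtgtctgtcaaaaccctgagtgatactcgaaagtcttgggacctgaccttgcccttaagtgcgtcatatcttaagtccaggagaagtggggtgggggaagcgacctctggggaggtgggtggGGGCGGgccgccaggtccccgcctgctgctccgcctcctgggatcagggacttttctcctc
Col17a1 held 2 TATAAA matches, 140 and 91 bases before its start, and 12.4% of 32851 promoters of this length held at least 1. Col7a1 held 1 GGGCGG match (a GC box) 61 bases before its start, against 32.7% of promoters. TGANTCA, the AP-1 motif, matched in none of the 4 shown, against 6.75% of promoters. A match is a description of the letters and not evidence of binding.

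Cells were kept with more than 1000 and fewer than 6000 genes and under 10% mitochondrial UMIs. Basal-like cells had at least 10 UMIs of Krt5 and Krt14 together and fewer than 10 of Krt1 and Krt10, and fibroblast-like cells had at least 30 of Col1a1 and Col3a1 and fewer than 10 of Krt5 and Krt14. The basal-like class held 901 to 2584 cells per library at E15.5, 239 and 464 in the controls and only 21 and 22 in the MOF cKO libraries at E16.5, and 2807 (control) and 1066 (QPC cKO) at E17.5. Summed, they held 360839 to 66188326 UMIs, and levels are given as CPM, the UMIs of a gene per 1000000 UMIs of the class. Kat8 in basal-like cells stood at 13.4 ± 0.489 (SD, n = 2) in E15.5 controls, 13.4 and 10.3 in MOF cKO replicates 5 and 6, 16.4 and 14.9 in E16.5 controls and 8.31 and 4.51 (3 and 2 UMIs) in the MOF cKO libraries. Reads from the 3′ end are counted whether or not a floxed exon is present, so Kat8 is no check of the deletion here (edgeR log2 fold change −0.0028 with adjusted p = 0.997 at the earlier stage and −0.81 with adjusted p = 0.460 at the later). Uqcrq was 103 in the E17.5 control and 45.7 in the QPC cKO. The class rule let through cells that carry dermal collagens as well: 62.6% of basal-like cells of the E17.5 control (1758 of 2807) and 40.2% of those of E16.5 control 1 had 10 or more Col1a1 and Col3a1 UMIs, against 7.29% and 7.43% in the E15.5 controls and 14.1% in the QPC cKO. The summed level of the 8 fibroblast markers in basal-like cells was 31099 in the E17.5 control and 5444 in the QPC cKO, and 1401 and 1020 once such cells were taken out. The 9 basal keratinocyte markers, among them Krt5 and Krt14, summed to 13398 to 20424 in basal-like cells of the controls. In the E17.5 control the fibroblast marker sum of 31099 was above this range. The name basal-like states the rule there, and most cells of that class carried dermal collagens as well. Values without cells with both signatures are given beside the results they moved most. Library pairs shared 0 to 36 cell barcodes, at most 0.354% of the smaller library.

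In the 5 control libraries, 7 of the 9 members were higher in basal-like than in fibroblast-like cells and 2 were lower. Laminin-332, integrin β4, collagen XVII and the Fraser genes marked the epidermal side, whereas Col7a1 and Lamc1 were read on both sides of the basement membrane and more on the dermal side. All 9 passed the test (edgeR's quasi-likelihood test with library as a block, Benjamini-Hochberg adjusted p under 0.05), but so did 55.5% of the 15767 genes tested, 27.9% higher and 27.6% lower in basal-like cells. The median log2 fold change was 4.67 over the members and 0.02 over all genes tested.

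The integrins come first. Itgb4 was at 65.7 and 60.8 CPM in basal-like cells of the E15.5 controls, 60.8 and 55.9 at E16.5 and 49.7 at E17.5, against 1.31 to 4.05 in fibroblast-like cells of the same libraries. The 2 ranges lay far apart (log2 fold change 4.67, SE 0.37, adjusted p = 0.00054). Itga6 was at 211 and 179, 108 and 110.3, and 167 in basal-like cells and at 18.2 to 43.1 in fibroblast-like cells (2.42, SE 0.09, adjusted p = 0.000164). Its fibroblast-like level was up to 24.0% of the basal-like level and in every control above the 0.712% to 5.52% found for Trp63, Krt15, Sfn and Perp, keratinocyte genes that the class rule did not use.

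Collagen XVII and laminin-332 lay almost wholly on the epidermal side. Col17a1 was at 228, 205, 145, 134 and 161 in basal-like cells of the 5 controls, in order of stage, and at 2.29 to 6.53 in fibroblast-like cells, at most 4.04% of the basal-like level. Lama3 was at 59.6, 60.8, 23.5, 29.6 and 49.6 against 0.58 to 1.08, or 0.973% to 2.95%. Lamb3 was at 55.0, 51.6, 82.2, 42.9 and 68.4 against 0.421 to 3.06, or 0.815% to 4.33%. For Col17a1 the fibroblast-like share was at or below the highest of the 4 keratinocyte genes of the same library in every control, and was not told apart from background. That highest gene was Sfn, whose suprabasal-like level was 207% to 403% of its basal-like level. Against Trp63 and Krt15 alone, Col17a1 was above both in the E15.5 controls and E16.5 control 2, and not in the other controls. Lama3 and Lamb3 were also at or below the highest of the 4 genes except in E16.5 control 2. There they stood at 2.24% (10 UMIs) and 4.33% (28 UMIs) and the 4 genes at 1.70% to 2.23%.

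The Fraser genes split between the layers. Frem2 was at 59.7, 54.0, 32.8, 31.3 and 36.4 in basal-like cells and at 0.493 to 1.67 in fibroblast-like cells (5.74, SE 0.53), 0.845% to 4.58% of the basal-like level, and above the 4 keratinocyte genes only in E16.5 control 2 (4.25% on 20 UMIs). Fras1 was at 81.3, 84.1, 60.8, 71.1 and 50.5 against 4.79 to 7.23 (3.60, SE 0.21). Its fibroblast-like share, 5.70% to 11.5%, was above the keratinocyte genes' range in every control. Frem1 showed the opposite order, with 22.8 to 58.0 in fibroblast-like and 4.28 to 24.7 in basal-like cells (−2.10, SE 0.32, adjusted p = 0.00319). Frem1 in basal-like cells of the controls was 2.59 to 5.29 once cells with both signatures were left out.

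Col7a1 and Lamc1 were the members read at least as strongly in fibroblast-like cells. Col7a1 was at 84.3, 74.5, 102, 84.3 and 149 in basal-like cells and at 156, 150.1, 139, 88.0 and 201 in fibroblast-like cells, higher in fibroblast-like cells of each control (104% to 202% of the basal-like level). The log2 fold change was −0.52 (SE 0.13, adjusted p = 0.0155). Lamc1 was at 36.2, 34.0, 62.3, 26.4 and 89.9 against 73.0, 72.5, 65.2, 56.2 and 122 (−0.69, SE 0.14, adjusted p = 0.00692). The highest basal-like Lamc1 levels were those of E16.5 control 1 and the E17.5 control. These are the 2 control libraries with the highest shares of basal-like cells with both signatures. The 2 levels became 42.5 and 56.6 without those cells. With these 2 libraries left out, Col7a1 was at −0.57 and Lamc1 at −0.94, and both passed, as did the other 7. Calls for Col7a1 ended when E16.5 control 1, E15.5 control 2 or E15.5 control 3 was left out. Neither gene passed when the library block was dropped.

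**Figure D1:**
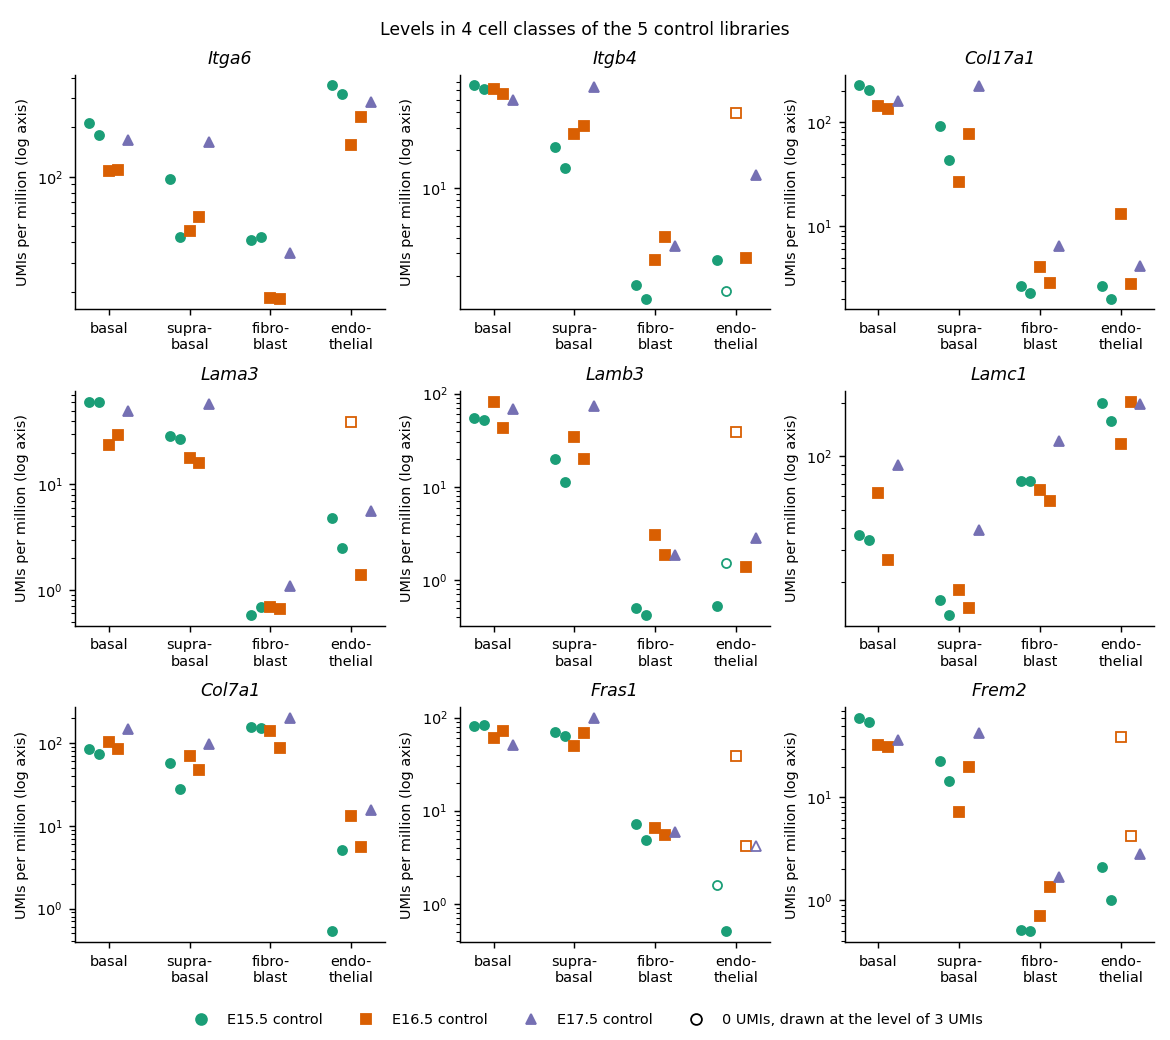
Levels of the 9 members in 4 cell classes of the 5 control libraries, in CPM on a log axis, 1 point per library, with colour and shape for the stage and open points for classes with 0 UMIs drawn at the level of 3 UMIs. Itgb4, Col17a1, Lama3, Lamb3, Fras1 and Frem2 sit high in both keratinocyte classes and low in the other classes. Itga6 and Lamc1 are highest in endothelial-like cells and Col7a1 in fibroblast-like cells.

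2 further classes were compared after the levels had been seen, with the same basal-like profiles, so these comparisons share their control samples with the one above. Suprabasal-like cells (Krt1 and Krt10 together at 10 UMIs or more) numbered 35 to 400 per control. Levels fell from basal-like to suprabasal-like cells for 4 of 9 members: Lamc1 (log2 fold change 1.16, SE 0.12, adjusted p = 0.000511, basal-like over suprabasal-like), Lamb3 (1.04, SE 0.31, adjusted p = 0.0398), Itga6 (0.95, SE 0.26, adjusted p = 0.0286) and Col7a1 (0.69, SE 0.15, adjusted p = 0.0122). Over all genes 30.3% passed, with 2013 of 3946 calls higher in basal-like cells (2563 of 3934 when scaled by library size alone), and the median log2 fold change was 0.94 over the members and 0.06 over all genes. The E17.5 control stood apart, with Itgb4 at 63.4, Col17a1 at 225 and Fras1 at 99.4 in suprabasal-like cells against 49.7, 161 and 50.5 in basal-like cells. Once basal-like cells with both signatures were left out, its basal-like levels of these genes were 93.1, 308 and 94.0. Without the E17.5 control (3737 of 11864 genes), or without cells with both signatures (4133 of 12567), 8 of 9 members passed, and Fras1 did not. Leaving out any other control left 2, Lamc1 and Col7a1. Fras1 was at 50.1 to 99.4 in suprabasal-like cells, 75.7% to 197% of its basal-like level (−0.15, SE 0.20, adjusted p = 0.616). The 197% is that of the E17.5 control with all its basal-like cells.

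Endothelial-like cells held the highest levels of Itga6 and Lamc1. They had at least 5 UMIs of Pecam1, Cdh5 and Kdr together and fell in no other class, with 8 to 108 cells per control. Itga6 was at 360.0, 318, 157, 232 and 283, above the basal-like level of the same library in 5 of 5, though the ranges overlapped (log2 fold change 0.69, SE 0.11, adjusted p = 0.00115, endothelial-like over basal-like). Without cells with both signatures it was 0.30 (adjusted p = 0.0995). Lamc1 was at 199, 159, 117, 203 and 197 (1.92, SE 0.28, adjusted p = 0.000531). The α6 subunit also pairs with β1, and γ1 laminins are part of vessel basement membranes. The other 7 members were at 0 to 15.3 there, with Fras1 at 1 UMI over all 5 libraries, and all 7 passed as lower. In this comparison 45.8% of 11800 genes passed, 20.3% as higher in endothelial-like cells.

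At E15.5 none of the 9 members passed between MOF cKO and control basal-like cells, nor did any other gene (0% of 14364), although 1309 had an unadjusted p under 0.05 in edgeR. DESeq2 called 113 genes and no member. The 2 MOF cKO libraries differed from each other more than the controls did. Replicate 5 was below both controls for 9 of 9 members, and for 66% of all genes tested. Replicate 6 was below both for 4, above both for 2 and between them for 3, beside 39.9% of all genes below and 42.3% above. Col7a1 was at 84.3 and 74.5 in controls, 32.5 in replicate 5 and 67.2 in replicate 6 (log2 fold change −0.57, SE 0.26, adjusted p = 0.508). Fras1 was at 81.3 and 84.1, 37.2 and 83.9, so that replicate 6 lay between the controls (−0.35, SE 0.29, adjusted p = 0.588). Itga6 was at 211 and 179, 116 and 190.5 (−0.23, SE 0.17), and Col17a1 at 228 and 205, 124 and 211 (−0.25, SE 0.18). For both, replicate 6 again lay between the controls.

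Lamb3 and Frem2 were lower in both MOF cKO libraries. Lamb3 was at 55.0 and 51.6 in controls and 32.3 and 44.4 in MOF cKO (−0.34, SE 0.12, unadjusted p = 0.034 from edgeR, adjusted p = 0.508). Frem2 was at 59.7 and 54.0 and at 31.9 and 47.6 (−0.39, SE 0.14, unadjusted p = 0.0405 from edgeR, adjusted p = 0.508). Lama3 was at 59.6 and 60.8 against 50.9 and 53.4 (−0.05, SE 0.13), Itgb4 at 65.7 and 60.8 against 56.4 and 69.6 (0.14, SE 0.10) and Lamc1 at 36.2 and 34.0 against 29.1 and 38.7 (0.09, SE 0.12). For Col7a1, Lama3, Lamb3 and Frem2 both MOF cKO libraries lay below both controls, as they did for 32.9% of all genes tested. Fitted values, scaled by edgeR's TMM factors, put Itgb4 and Lamc1 slightly up; scaled by library size alone they were −0.0046 and −0.049. The median over the members was −0.25, and −0.01 over all genes tested. No member passed either when cells with both signatures were left out, and the log2 fold changes ran from −0.61 for Col7a1 to 0.22 for Itgb4.

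Calls at E15.5 changed with the MOF cKO library left out. Without replicate 6, 7518 of 15213 genes passed, and 6 members were lower: Col7a1 (−0.99), Fras1 (−0.86), Frem2 (−0.54), Col17a1 (−0.51), Itga6 (−0.46) and Lamb3 (−0.43), with adjusted p between 0.000333 and 0.00916. This fit has 1 MOF cKO library, which is assumed to vary as the controls do. Without replicate 5, 747 genes and no member passed, with Fras1 at 0.02 and Col7a1 at −0.24. Markers differed in replicate 5 as well: Krt15 was at 3162 and 3047 in controls, 722 in replicate 5 and 2130 in replicate 6, and Krt5 and Krt14, which the class rule uses, were at 2139 and 3246 in replicate 5 against 4138 to 4974 and 5571 to 7071 in the other 3 libraries. The part of a shift among basal-like states in the members' values was not tested. Replicate 5 and replicate 6 had 8.85% and 13.6% of kept cells in the basal-like class, against 29.4% and 28.3% in controls.

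**Figure D2:**
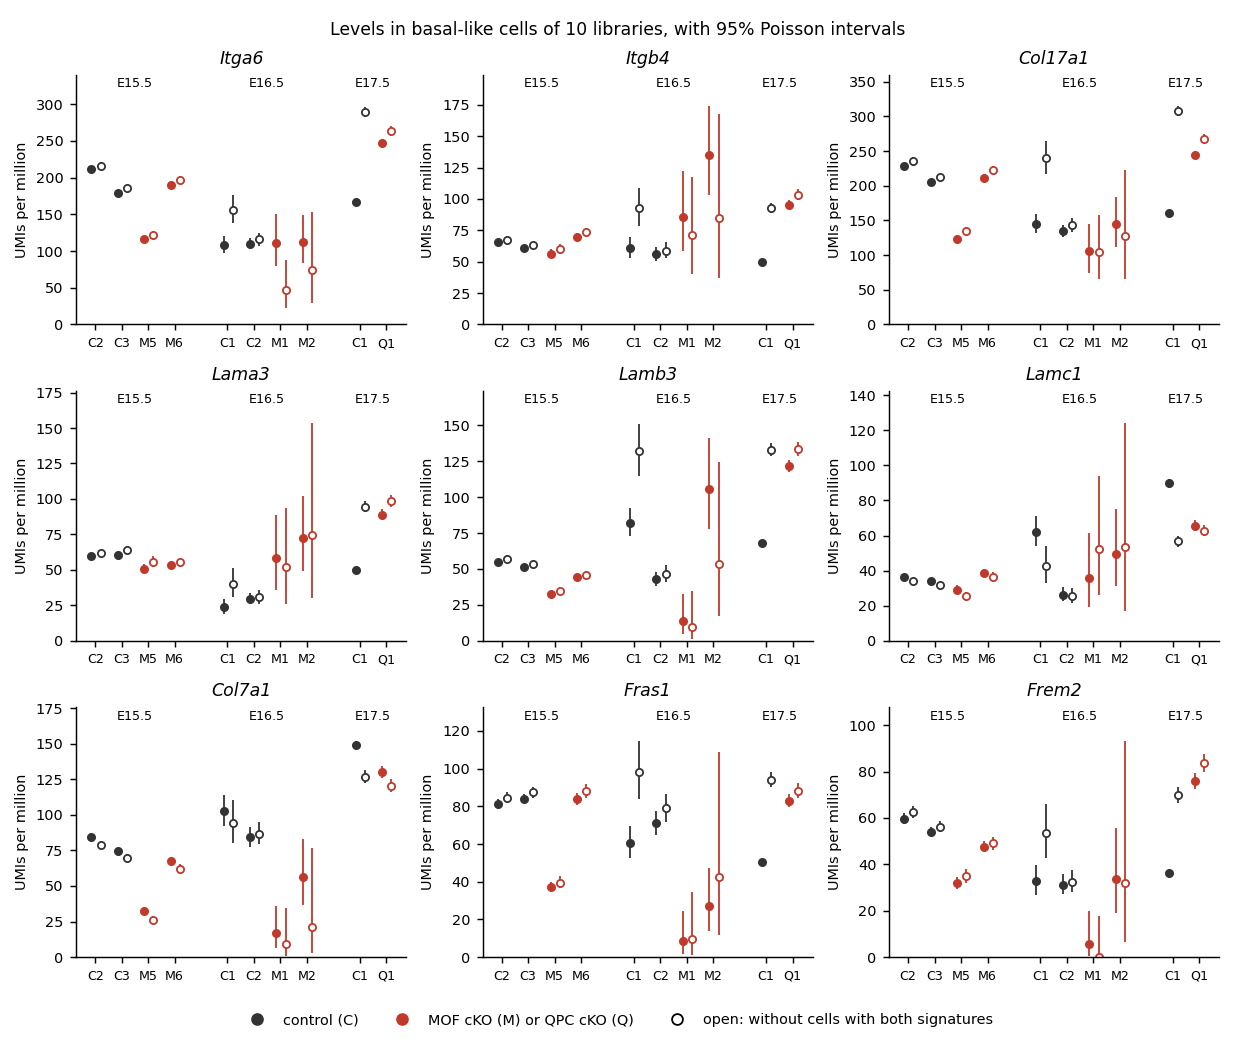
Levels of the 9 members in basal-like cells of each library, in CPM with 95% Poisson intervals, with controls in black, MOF cKO (M) and QPC cKO (Q) in red, and open points without cells with both signatures. E15.5 MOF cKO replicate 5 lies below both controls in each panel. The E16.5 MOF cKO points have wide intervals, and the E17.5 control moves upward for 7 of 9 members when cells with both signatures are left out.

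At E16.5 none of the 9 members passed either, and 0.243% of 9454 genes did (23, all higher in MOF cKO, and 1923 with unadjusted p under 0.05 in edgeR). The MOF cKO values rest on 21 and 22 cells and on 2 to 64 UMIs per member and library, so only large differences were detectable. The study reports Col7a1, Frem2 and Lamc1 as significantly lower in MOF cKO in bulk RNA-seq of sorted E16.5 epithelial cells. It also reports reduced basement membrane genes in its E16.5 single-cell data. Those are other samples, cell sets and thresholds than here. Lama3 was the member that stood out most, at 23.5 and 29.6 CPM in controls and at 58.2 and 72.2 in MOF cKO (21 and 32 UMIs). The groups did not overlap (log2 fold change 1.77, SE 0.37, adjusted p = 0.113). Itgb4 was at 60.8 and 55.9 against 85.9 and 135 (1.43, SE 0.32, adjusted p = 0.126). With cells of both signatures left out, Itgb4 was at 93.0 and 58.9 in controls and at 71.4 and 85.1 in MOF cKO, on 15 and 8 UMIs, so the groups overlapped (0.47, adjusted p = 0.548). Fras1 was lower in both MOF cKO libraries, at 60.8 and 71.1 against 8.31 and 27.1 on 3 and 12 UMIs (−1.37, SE 0.52, adjusted p = 0.216).

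Col7a1 was likewise below both controls in both MOF cKO libraries, at 102 and 84.3 against 16.6 and 56.4 (−0.82, SE 0.49, adjusted p = 0.373). With cells of both signatures left out it was at 94.2 and 86.8 against 9.52 and 21.3, on 2 UMIs in each MOF cKO library (−2.32, SE 0.51, adjusted p = 0.114). Itga6 was at 108 and 110.3 against 111 and 113, with little spread in either group (0.53 by the fit, and 0.02 scaled by library size alone). Frem2 was at 32.8 and 31.3 against 5.54 and 33.8, Lamb3 at 82.2 and 42.9 against 13.9 and 106, Lamc1 at 62.3 and 26.4 against 36.0 and 49.6, and Col17a1 at 145 and 134 against 105 and 144. For these 4 genes the groups overlapped. Both MOF cKO libraries were below both controls for 2 members and above both for 3, beside 51.5% and 10.6% of all genes tested. Once cells with both signatures were left out this became 5 below and 2 above, beside 46.1% and 9.14% of the same genes, and Itga6, Col17a1 and Lamb3 turned to −0.80, −0.31 and −1.39. The members' median with all cells was 0.50, and −0.11 over all genes. Scaling by library size alone moved the median of all genes to −0.64 and turned Col17a1, Lamb3 and Lamc1 from 0.35, 0.50 and 0.52 to −0.17, −0.036 and −0.044.

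Lama3 was called higher in 6 of 14 other fits at E16.5 (log2 fold change 1.21 to 2.11, adjusted p = 0.00445 to 0.427), Itgb4 in 3 (0.47 to 1.66, adjusted p = 0.0225 to 0.548) and Fras1 was called lower in 3 (−2.47 to −0.78, adjusted p = 0.0197 to 0.518). Without cells with both signatures, 15 and 9 MOF cKO cells remained, Itga6 was at 156 and 116 in controls and 47.6 and 74.5 in MOF cKO, and its log2 fold change turned from 0.53 to −0.80 (called in neither). Stress keratins were higher in the same cells: Krt6a, Krt6b, Krt16 and Krt17 summed to 955 to 1120 in controls and to 5363 to 15586 in MOF cKO, and Krt15 was at 2431 and 3898 against 222 and 507. Their part in the members' values was not tested. The difference between stages of the MOF cKO effect was 1.75 for Lama3 (SE 0.38, adjusted p = 0.269) and 1.23 for Itgb4 (SE 0.32, adjusted p = 0.295), with no member and 0.0152% of 13189 genes past the threshold and 1520 genes below an unadjusted p of 0.05 in edgeR. DESeq2 called both genes in that comparison.

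In fibroblast-like cells Col7a1 fell at E16.5. It was at 139 and 88.0 in controls and at 43.1 and 40.6 in MOF cKO, on 291 to 1326 UMIs per library, and the groups did not overlap (−1.29, SE 0.19, adjusted p = 0.0355). It was the 1 member called of 7 tested; Lama3 and Frem2 had too few UMIs for the filter. Over all genes 4.64% of 12569 passed and 2.21% passed as lower, 305 of the 583 calls being higher (346 of 837 when scaled by library size alone), with a median of 0.01 beside −0.34 over the 7 members. Leaving out cells of both signatures kept 289 of 657 and 1211 of 1433 control cells, but 498 of 518 and 1046 of 1053 MOF cKO cells. In the cells kept, Col7a1 was at 160 and 91.3 against 42.6 and 41.1 (−1.42, edgeR adjusted p = 0.0546). The call also ended when control 2 (adjusted p = 0.0829), MOF cKO 1 (0.0922) or MOF cKO 2 (0.140) was left out. Lamc1 was higher in both MOF cKO libraries, at 65.2 and 56.2 against 78.1 and 93.5 (0.63, SE 0.12, adjusted p = 0.0552), and was called in 3 of 13 other fits.

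Col7a1 was also low in the mixed remainder of kept cells of the MOF cKO libraries. In kept cells outside the classes it was at 67.9 and 65.5 in E16.5 controls and at 5.22 and 8.34 in MOF cKO. In the same kind of cells it was at 46.1 and 41.5 in E15.5 controls and 13.4 and 26.5 in MOF cKO. Frem1, no member, was also lower there, at 24.9 and 25.1 against 2.37 and 4.34 at E16.5 and at 29.4 and 31.3 against 12.9 and 20.1 at E15.5. Col7a1 was not alone in this among the 9 members. Both MOF cKO libraries were below both controls there for 6 members at E16.5 and for 6 at E15.5, Col7a1 included. They were above both for 0 members at either stage. At E16.5 the 6 also held Itga6, Col17a1, Lama3, Fras1 and Frem2, the last 4 on 0 to 5 UMIs in each MOF cKO library. The other members above 5.61 there were Itga6 and Lamc1. At E16.5 Itga6 was at 50.9 and 45.2 against 39.4 and 44.0, and Lamc1 at 47.3 and 34.2 against 34.1 and 45.7. These comparisons were not fitted, and the share of all genes lower there was not taken. This class is what the other rules left, so its mix of cell types can differ between groups. The study reports more immune cells in MOF cKO skin at E16.5. The part of the cell mixture in these values was not tested. In fibroblast-like cells at E15.5 Col7a1 was at 156 and 150.1 against 111 and 159, so replicate 6 was above both controls (−0.21, SE 0.14, adjusted p = 0.522). No member passed there, nor did any of 16268 genes (0%), although 2538 had an unadjusted p under 0.05 in edgeR and DESeq2 called 494, none of them a member. The E16.5 fibroblast-like profiles also differed in markers: the 9 basal keratinocyte markers summed to 365 to 622 in controls and 194 to 213 in MOF cKO, and the 8 fibroblast markers to 25203 to 28252 and 32483 to 34094, all detected in every library. Kat8, the deleted gene, was lower in the fibroblast-like profiles of MOF cKO libraries too, at 9.60 and 8.23 in controls and 2.81 and 5.39 in MOF cKO at E16.5 (−0.95, adjusted p = 0.136), and at 9.18 and 9.62 against 6.83 and 5.98 at E15.5 (−0.58, adjusted p = 0.194). The part of the markers and of Kat8 in the Col7a1 values was not tested.

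**Figure D3:**
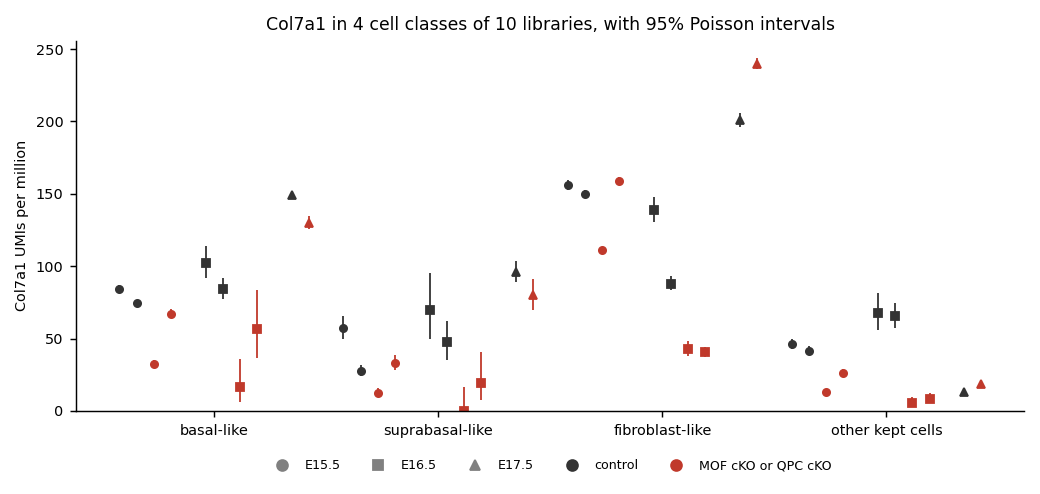
Col7a1 in basal-like, suprabasal-like, fibroblast-like and other kept cells of the 10 libraries, in CPM with 95% Poisson intervals, with shape for the stage and red for MOF cKO and QPC cKO. At E16.5 both MOF cKO libraries lie below both controls in each of the 4 classes. In basal-like cells 51.5% of all genes tested did so, and this share is not given for the other classes. The suprabasal-like MOF cKO points of that stage rest on 0 and 7 UMIs from 10 and 17 cells. Endothelial-like cells are not drawn, and there the E16.5 groups overlap, on 1 and 4 UMIs in controls and 1 and 2 in MOF cKO. At E17.5 the QPC cKO lies below the control in both keratinocyte classes and above it in the other 2.

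Whether the MOF cKO effect differed between the 2 classes was tested with library as a block. No member passed at E15.5 (0% of 16361 genes, with 1122 below an unadjusted p of 0.05 in edgeR and 24 in DESeq2 past the adjusted one) or at E16.5 (0.0229% of 13072 genes, 2000 at an unadjusted p under 0.05). The largest E16.5 values among the members were those of Lama3 (3.12, SE 0.67, adjusted p = 0.179) and Itgb4 (1.94, SE 0.43, adjusted p = 0.179), both higher in basal-like cells. Lama3 had 1 to 10 UMIs per library in fibroblast-like cells of that stage. For Col7a1 the difference was 0.22 (SE 0.55, adjusted p = 0.857), an estimate too wide to place the basal-like change above or below the fibroblast-like one.

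**Figure D4:**
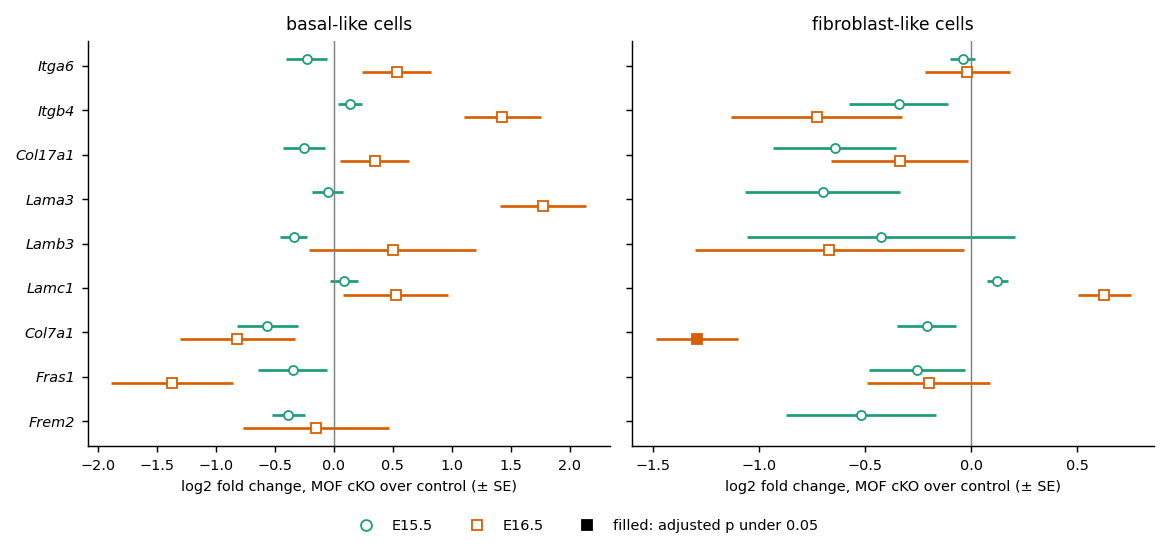
Log2 fold change of each member, MOF cKO over control, with its standard error in basal-like (left) and fibroblast-like (right) cells at E15.5 (circles) and E16.5 (squares), filled where the adjusted p was under 0.05. Col7a1 in E16.5 fibroblast-like cells is the filled point. Lama3 and Frem2 have no E16.5 fibroblast-like point because too few UMIs were counted.

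At E17.5 the comparison has 1 library a group and no test, and intervals cover counting error only. Of the control's basal-like cells 62.6% carried dermal collagens as well, against 14.1% in the QPC cKO, so values with all cells compare unlike mixtures. In all basal-like cells 7 of 9 members were higher in the QPC cKO, beside 50.3% of the 12851 genes compared. Frem2 was at 36.4 in the control and 76.0 in the QPC cKO (ratio 2.09, 95% interval 1.96 to 2.22) and Itgb4 at 49.7 and 95.4 (1.92, 1.82 to 2.02). Lama3 was at 49.6 and 89.0 (1.79), Lamb3 at 68.4 and 122 (1.78), Fras1 at 50.5 and 82.9 (1.64), Col17a1 at 161 and 245 (1.52) and Itga6 at 167 and 247 (1.48). Lamc1 was lower, at 89.9 and 65.7 (0.731), as was Col7a1, at 149 and 130.1 (0.873). Frem2 was the member past 2-fold, beside 12.8% of 12851 genes; with a mitochondrial limit of 5%, 7 members were past it (1879 of 12205 genes), and with thinned cells (214 genes), a stricter class rule (218) or a pseudocount of 5 (817), none.

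Without cells with both signatures these differences shrank, and those of Itga6, Col17a1, Fras1 and Lamc1 changed direction. Itga6 was at 289 in the control and 264 in the QPC cKO, Col17a1 at 308 and 268, Itgb4 at 93.1 and 103, Lama3 at 94.7 and 98.4, Lamb3 at 133 and 133, Lamc1 at 56.6 and 62.7, Col7a1 at 127 and 121, Fras1 at 94.0 and 88.2 and Frem2 at 69.7 and 83.7. Ratios ran from 0.869 (Col17a1, 0.84 to 0.90) to 1.20 (Frem2, up to 1.28), 5 members were higher and 4 lower in the QPC cKO, beside 40.8% of genes higher, and no member was past 2-fold, beside 4.68% of 10713 genes. Uqcrq, the deleted gene, was at 130.1 and 38.1 in these cells. Hair germ cells, by 2 or more UMIs of Sox9, Lhx2, Shh, Pthlh and Edar, made up 28.3% of basal-like cells in the control and 62.4% in the QPC cKO, and the part of that shift was not tested.

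In fibroblast-like cells at E17.5 Col7a1 was at 201 in the control and 239.8 in the QPC cKO (ratio 1.19, 1.16 to 1.23), Lamc1 at 122 and 109 (0.893) and Itga6 at 34.3 and 46.2 (1.35, 1.26 to 1.44). With cells of both signatures left out, 300 of 1759 control and 1851 of 3355 QPC cKO cells remained. Itga6 was then at 46.9 and 48.1 (1.03, 0.893 to 1.18). None of the 6 members with at least 100 UMIs was past 2-fold, beside 2.24% of 12289 genes with all cells and 2.41% without those of both signatures.

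**Figure D5:**
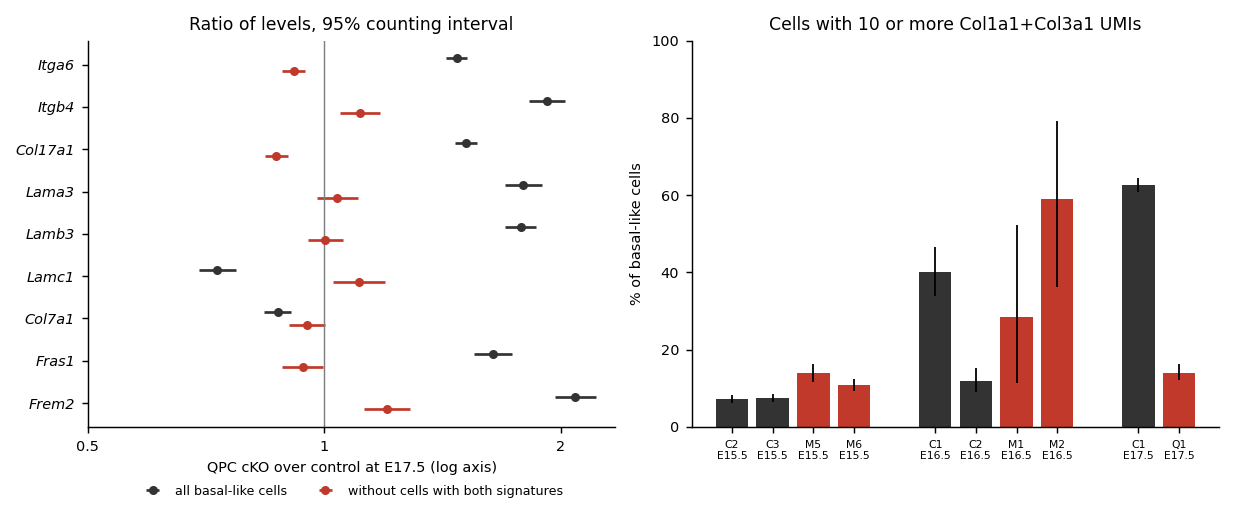
Left, ratio of the level in QPC cKO to that in control basal-like cells at E17.5 for each member, on a log axis with 95% counting intervals, with all cells in black and without cells with both signatures in red; the red ratios lie between 0.869 and 1.20. Right, percentage of basal-like cells with 10 or more Col1a1 and Col3a1 UMIs in each library with 95% binomial intervals, highest at 62.6% in the E17.5 control and 59.1% in E16.5 MOF cKO replicate 2, where 13 of 22 cells are counted.

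Other basement membrane and adhesion genes, 32 in a list that also holds Frem1, gave the members their surroundings. All 32 passed between basal-like and fibroblast-like cells of the controls, 17 higher and 15 lower in basal-like cells (median 0.61). Of all genes tested 55.5% passed, 27.9% higher and 27.6% lower in basal-like cells. On the epidermal side were Fermt1, the integrin adaptor kindlin-1 (7.07), Lad1, a protein of the anchoring filaments (5.63), and Itga3 (5.62). The dermal side was led by Itga8 (−2.95), a receptor for nephronectin, the nidogens Nid1 (−2.74) and Nid2 (−2.45), and Lama4 (−2.52). In basal-like cells none of these genes passed between MOF cKO and control, of 32 tested at E15.5 (7 at an unadjusted p under 0.05 in edgeR, median 0.22) and 29 at E16.5 (8 at an unadjusted p under 0.05, median 0.41). In E16.5 fibroblast-like cells 4 of 26 passed, beside the 4.64% of all genes: Tnc, tenascin-C, rose from 13.2 and 9.16 to 244 and 80.3 (4.03, adjusted p = 0.0355), Lama4 (0.99, adjusted p = 0.0285) and Fbln2 (0.83, adjusted p = 0.0407) rose, and Bcam, a laminin receptor, fell (−1.57, adjusted p = 0.0437). Their list's median was 0.60. Without cells with both signatures Tnc passed (4.43, adjusted p = 0.0482), and Lama4 (0.0520), Bcam (0.0597) and Fbln2 (0.0921) did not. Tnc was called in 11 of 13 other fits, Lama4 in 9, Bcam in 7 and Fbln2 in 6, and with 1 library left out adjusted p rose above 0.05 for Tnc without either control, for Lama4 without control 2 or either MOF cKO library, and for Bcam and Fbln2 without any of the 4.

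At E17.5, 5 of the 32 were past 2-fold in all basal-like cells, near the 12.8% of all genes: Npnt, the nephronectin of the epidermal side, was higher in the QPC cKO (30.4 and 62.6), and Nid1, Nid2, Lama4 and Lamb1, all lower in basal-like than fibroblast-like control cells, were lower (Nid1 147 and 35.4). Without cells with both signatures 1 was past 2-fold, beside 4.68% of all genes, Tnc at 14.1 and 34.1.

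Shares of cells with a UMI are given for 4 members at E15.5. In these libraries 91.7% and 92.7% of control basal-like cells and 80.8% and 92.7% of MOF cKO cells (replicates 5 and 6) had a Col17a1 UMI. With each cell thinned to 5000 UMIs these were 63.8%, 61.2%, 45.7% and 62.7%. Fibroblast-like cells, where this gene was not told apart from background, had 0.556% to 1.26%. Fras1 was found in 65.7%, 70.4%, 45.5% and 72.2% of basal-like cells, and in 32.3%, 33.4%, 16.8% and 31.0% after thinning, against 2.32% to 3.49% in thinned fibroblast-like cells. Cells under 5000 UMIs, 6 to 9 basal-like and 33 to 92 fibroblast-like per library, were left out of the thinned shares. Median depth was 15800 to 19948 UMIs in basal-like and 11212.5 to 13221 in fibroblast-like cells. For both genes replicate 5 was the low library at equal depth. Itgb4 and Lama3 showed less of this, at 27.4%, 25.1%, 23.5% and 29.7% and at 25.5%, 26.3%, 21.7% and 21.6% of thinned basal-like cells in the same order, against at most 0.923% of thinned fibroblast-like cells. Unthinned, these shares were 60.8%, 63.0%, 60.7% and 70.5% for Itgb4 and 56.8%, 63.8%, 56.2% and 59.9% for Lama3.

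The 5 genes, none a member, whose basal-like levels followed the members' mean most closely over the 10 profiles, centred within each stage, were Agrn (Pearson's r = 0.987), Esrp1 (0.966), Imp3 (0.952), Celsr1 (0.949) and Satb1 (0.946), of 2548 genes with a mean of at least 50 CPM. These points share libraries' depth and cell mixture, and the 5 nearest genes without cells with both signatures were others (0 shared). Among the members, Frem2 (0.921), Lamb3 (0.900) and Col17a1 (0.856) followed the mean of the rest most closely, and Lama3 did not (−0.14). Without cells with both signatures the order was Lamb3 (0.966), Fras1 (0.959) and Itga6 (0.925, against 0.545 with all cells), with Lamc1 at −0.25 against 0.27 and Lama3 at −0.29.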

How the data were processed

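Raw UMI counts per gene and cell were deposited by the authors as 10x matrices, made with Cell Ranger (6.1.2 by the methods; the submitters' processing notes list 1.3.1 and 6.1.2) against mm10. The skins had been digested with collagenase and then trypsin. Cells were filtered and classed as described above, and no doublet caller was run. Results were repeated without cells with both signatures, which kept basal-like cells with fewer than 10 Col1a1 and Col3a1 UMIs. Fibroblast-like cells were then kept with fewer than 5 Krt5 and Krt14 UMIs. Whether the cells left out were doublets was not tested. Counts were summed per library and class and tested with edgeR 4.0.16 in R 4.3.3 (filterByExpr, TMM, quasi-likelihood test, Benjamini-Hochberg adjustment over all genes tested, threshold 0.05), with DESeq2 1.42.0 as an alternative; tables were made in Python 3.11.15 with scipy 1.17.1. MOF cKO was compared with control within a stage over 2 and 2 libraries. Nothing says that replicates come from separate litters, so p-values measure the spread between these samples. Comparisons of classes had library as a block. For E17.5, ratios of genes with 100 or more UMIs are given on the CPM scale, and a change past 2-fold was judged on log2 with a pseudocount of 1. Poisson and exact Clopper-Pearson intervals are at 95% and cover counting error only. The steps were tested on simulated data. The members and lists were chosen with earlier results of these data known. The text names the 9 members, Frem1, the deleted genes, up to 4 other basement membrane genes in each direction that passed, and the 5 genes most like the members; 1 gene that this rule names is not reported here. Alternatives were another tool, another scaling, no filter, other cell limits and class rules, and leaving out each library.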

Additional observations from a re-analysis of the deposited data

Results flagged for a closer look

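In E16.5 MOF cKO the level of Itgb4, the β4 integrin of hemidesmosomes, lay above both controls in basal-like cells and below both in fibroblast-like cells. The log2 ratio of mean levels was 0.92 in basal-like cells (58.3 to 111 CPM) and −0.80 in fibroblast-like cells (3.35 to 1.93). The test of the difference between classes did not pass in edgeR (adjusted p = 0.179) and passed in DESeq2 (2.07, adjusted p = 0.0330). With cells of both signatures left out, basal-like Itgb4 was at 93.0 and 58.9 in controls and 71.4 and 85.1 in MOF cKO, and the groups overlapped. The fibroblast-like values rest on 13 and 24 UMIs in MOF cKO. In controls they were 2.15% to 7.25% of the basal-like level, beside 0.712% to 5.52% for the keratinocyte genes Trp63, Krt15, Sfn and Perp. Within a library Itgb4 was above all 4 of these genes in every control except E16.5 control 1, where it was at 4.35% and Sfn at 5.52%. The 9 basal keratinocyte markers summed to 365 to 622 in control and 194 to 213 in MOF cKO fibroblast-like profiles, and their part was not tested.

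Lama3, the α3 chain of laminin-332, lay below both controls in E15.5 MOF cKO basal-like cells and above both at E16.5. The E15.5 direction is not firm: the fitted log2 fold change was −0.05 (SE 0.13), 0.015 with thinned cells, 0.028 without cells with both signatures and −0.17 to 0.053 with 1 library left out. The log2 ratio of mean levels was −0.21 at E15.5 (60.2 to 52.2 CPM) and 1.29 at E16.5 (26.6 to 65.2). The test of the difference between stages did not pass in edgeR (adjusted p = 0.269) and passed in DESeq2 (1.84, adjusted p = 0.00368). Stage and chemistry cannot be told apart, and the E16.5 MOF cKO values rest on 21 and 22 cells.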

How the results depend on the processing

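Every call between basal-like and fibroblast-like cells held in 11 of 15 alternatives; 8 members passed without E16.5 control 1, E15.5 control 2 or E15.5 control 3, and 7 with no library block, where the count over all genes was 3393 against 8756. Of the changes in members that the text prints, under alternatives, 709 kept direction and side, 46 came past the threshold, 18 left it and 29 turned, and no called change turned. The cause of the changes listed here was not tested. The study describes the samples of E15.5 and of E16.5 as 2 pairs each, with littermate controls, and no pairing entered the main fits. At E15.5 the replicate numbers differ between groups and do not say which libraries are pairs, so no block was fitted there. Within a replicate number at E16.5, deviations from the group means had correlations of −0.078 in basal-like and −0.021 in fibroblast-like cells. With 2 libraries a group these values cannot show whether the numbers mark pairs. With a replicate block Col7a1 in fibroblast-like cells was −1.27 (edgeR adjusted p = 0.0276). In basal-like cells that block gave no member, and 52 genes against 23 passed.

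For the E16.5 MOF cKO effect in basal-like cells, where no member passed, 2 passed with DESeq2 (295 genes against 23), 3 with no filter on low counts (991), 2 with the class rule on thinned cells (933), 2 with the stricter class rule (423) and 2 with all 8 samples in 1 fit (166); leaving out 1 library gave 0 to 1 (0 to 434 genes). At E15.5 leaving out 1 library gave 0 to 6 members (0 to 7518 genes), 6 without MOF cKO replicate 6, and DESeq2 gave 113 genes and no member. For fibroblast-like cells at E16.5, where 1 passed, 2 passed with DESeq2 (950 genes against 583), 2 with no filter (1752), 2 with all 8 samples (2748) and 0 without cells with both signatures (167); leaving out 1 library gave 0 to 1 (0 to 369 genes). At E15.5 no filter gave 222 genes and no member. Against suprabasal-like cells, where 4 passed, 7 passed with DESeq2 (4319 genes against 3946) and 8 without cells with both signatures (4133), and leaving out 1 library gave 2 to 8 (2524 to 3737 genes). For the difference between stages, where 0 passed, 2 passed with DESeq2 (204 genes against 2) and 1 with no filter (415); leaving out 1 library gave 0 to 1, the 1 being without E16.5 control 2 (42 genes). For the difference between classes at E15.5, leaving out 1 library gave 0 to 5 members, 5 without MOF cKO replicate 6 (6563 genes). At E16.5, where 0 passed, 2 passed with DESeq2 (173 genes against 3), 1 with no filter (204), 3 with thinned cells (1744) and 3 with the stricter rule (1398); leaving out 1 library gave 0 to 1 (0 to 660 genes). At E17.5, where 1 member was past 2-fold, 0 were with a pseudocount of 5 (817 genes against 1646), 7 with a mitochondrial limit of 5% (1879), and 0 with thinned cells (214), the stricter rule (218) or without cells with both signatures (501).

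Among those changes, no value that turned was called. For MOF cKO over control in basal-like cells at E15.5, Itgb4 was −0.0046 with library sizes alone and −0.0074 without hair germ cells, Lamc1 was −0.049 with library sizes alone, and Lama3 was 0.015 with thinned cells, 0.028 without cells with both signatures and −0.17 to 0.053 with 1 library left out, where Fras1 was −0.86 (called, without MOF cKO replicate 6) to 0.018. At E16.5 library sizes alone gave Col17a1 −0.17, Lamb3 −0.036 and Lamc1 −0.044, thinned cells gave Col17a1 −0.25 and Lamb3 −0.32, the stricter rule gave Col17a1 −0.12 and Lamb3 −0.065, and leaving out cells with both signatures gave Itga6 −0.80, Col17a1 −0.31 and Lamb3 −1.39. Frem2 was 0.061 with a mitochondrial limit of 5% and −2.0 to 0.52 with 1 library left out, where Lamb3 was −1.59 to 1.25. In fibroblast-like cells with 1 library left out, Lamb3 was −1.77 to 0.24 and Fras1 −0.52 to 0.071 at E15.5, and Itga6 was −0.25 to 0.20 and Fras1 −0.50 to 0.10 at E16.5. Fras1 in basal-like over suprabasal-like cells was 0.23 without cells with both signatures and −0.28 to 0.15 with 1 library left out. Differences between stages took both signs over the alternatives for 5 of 9 members, and those between classes for 4 at E15.5 and 5 at E16.5. The Col7a1 difference between classes at E16.5 was −1.24 without cells with both signatures and −0.88 to 0.91 with 1 library left out.

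Thinning to 5000 UMIs moved 104 of 108 mean shares of cells with a UMI by more than the spread between libraries. Groups of E17.5 have 1 library each and no such spread. Thinning takes UMIs from each cell, so lower shares follow from the step itself. Some alternatives were chosen after seeing the data. They were the removal of both control libraries with the highest shares of basal-like cells with both signatures, and the likeness without such cells. The suprabasal-like and endothelial-like comparisons were chosen then as well. With 1 library left out of a group of 2, the lone library is assumed to vary as the others. Depth limits the E16.5 MOF cKO basal-like values, which rest on 360839 and 443389 UMIs.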
